A study of Mus musculus with 12 samples.

Results

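The hypothalamus of diabetic mice that had been given curcumin (n = 3 libraries) was compared with that of control mice (n = 3) across all genes, to ask what still differed from control under the compound. These are 6 of the 12 bulk RNA sequencing libraries of the series, which also holds untreated diabetes (n = 4) and diabetes treated with aged garlic extract (n = 2). All mice were C57BL/6 males. Curcumin mice had been injected with streptozotocin (STZ), a toxin of the insulin-producing beta cells, at 70 mg/kg into the peritoneum on postnatal day 2. They were fed a high-fat diet with 60% of its calories as fat for 8 weeks from the age of 3 weeks. Curcumin, the yellow polyphenol of turmeric, was given by gavage every day at 50 mg/kg for 28 days. Control mice were kept on standard chow and gavaged with the vehicle, and no STZ is given for them in the labels. Untreated diabetic mice had STZ, the high-fat diet and the vehicle. Garlic mice had the same STZ dose and diet, and aged garlic extract at 200 mg/kg for 28 days. A difference between the curcumin and control groups therefore joins STZ, diet and curcumin, which cannot be told apart in this comparison. One text of the submitters starts the gavage in week 7 of the diet and another after 11 weeks on it, and the timing is unresolved.

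The hypothalamus holds small groups of neurons, each marked by its own transcription factors and neuropeptides, that set feeding, energy use, water balance and hormone release. Its capillaries form part of the blood-brain barrier, with a fenestrated stretch at the median eminence through which hormones and nutrients pass. Curcumin is studied as an antioxidant and anti-inflammatory compound, with the NRF2 and NF-kB pathways as its textbook targets.

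No gene passed the test in curcumin against control. By edgeR's quasi-likelihood test with Benjamini-Hochberg adjustment at 0.05, 0 of 25562 genes rose and 0 fell (0% in each direction), and the smallest adjusted p was 1. At an unadjusted p under 0.05, 270 genes were higher with curcumin (1.06% of genes tested) and 327 lower (1.28%). The 3 curcumin libraries all lay above the 3 control libraries in 720 genes (2.82%) and all below them in 1492 genes (5.84%). DESeq2 called 5 genes, all lower, among them the transcription factor Foxd2 and the choline transporter Slc5a7, and limma-voom with library weights called 0. Without the low-count filter edgeR called 43, of which 22 were higher. In the same fit, untreated diabetes against control gave 4 genes higher (0.0156%) and 0 lower (0%), and curcumin against untreated diabetes gave 1 higher (0.00391%) and 22 lower (0.0861%).

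Total counts were 17575625 to 23470800 in control and 18735948 to 21539173 in curcumin libraries. Thinned to the lowest depth of the series, control libraries would hold 25766 to 33157 genes with a count, and curcumin replicates 1, 2 and 3 would hold 20917, 29126 and 22337. Replicates 1 and 3 thus lay below every control library in the number of genes detected, and replicate 2 lay among them. Correlated with the mean of the controls over log2 scaled counts, curcumin replicates 1, 2 and 3 gave r = 0.900, 0.960 and 0.915. Control libraries, each against the mean of the other controls, gave 0.952 to 0.975. Between curcumin libraries r was 0.867 for replicates 1 and 2, 0.861 for 1 and 3 and 0.882 for 2 and 3. The biological coefficient of variation of the fit was 0.808. The labels number the libraries but do not tie each to an animal of its own. The p-values therefore cover only the scatter among libraries, part of which may be technical.

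Curcumin replicate 2 went against its tissue label. In that library the transcription factors that define hypothalamic neurons were near 0: Nkx2-1, which specifies the ventral hypothalamus, stood at 0.0497 CPM, the read count scaled to library size, against 34.0, 35.5 and 38.4 CPM in control and 47.7 and 35.3 CPM in curcumin replicates 1 and 3. Otp and Sim1, needed for neuroendocrine neurons of the paraventricular nucleus, stood at 0.199 and 0.149 CPM, where the other 5 libraries held 41.0 to 75.3 and 9.92 to 16.7 CPM. Fezf1, of the ventromedial nucleus, and Dlx2, of inhibitory forebrain neurons, had no count in it. Six3, which is expressed more widely in the forebrain, was at 39.0 CPM, close to the 39.5 to 50.5 CPM of the other 5 libraries.

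Midbrain genes stood higher in the same library than in the other 5. Pou4f2, a factor of tectal and retinal projection neurons, was at 18.4 CPM there and at 0.0844 CPM or 0 in the other 5 libraries. En1 and Gata3, which mark midbrain neurons in development, were at 26.7 and 21.4 CPM, against at most 1.44 and 0.793 CPM elsewhere. Tal1 was at 27.6 CPM and Irx2 at 55.8 CPM, where the other 5 libraries held 0.595 to 2.24 and 2.09 to 5.87 CPM. Tal1 was also the 1 gene that passed as higher in curcumin against untreated diabetes, where it had no count. It was at 1.33 and 0.595 CPM in curcumin replicates 1 and 3, so the size of that rise rests largely on replicate 2. A list's level is the median over its genes of log2 CPM minus the mean of the controls. Hypothalamic transcription factors stood at -4.95 in curcumin replicate 2, -0.05 in replicate 1 and -0.02 in replicate 3. The level of midbrain markers was 3.00, -0.15 and -0.64 in replicates 2, 1 and 3. The main results below are therefore given with and without curcumin replicate 2. The fit without it keeps curcumin replicates 1 and 3, which correlated less with the controls over all genes tested. Genes chosen for this check were picked after their values were seen.

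**Figure D1:**
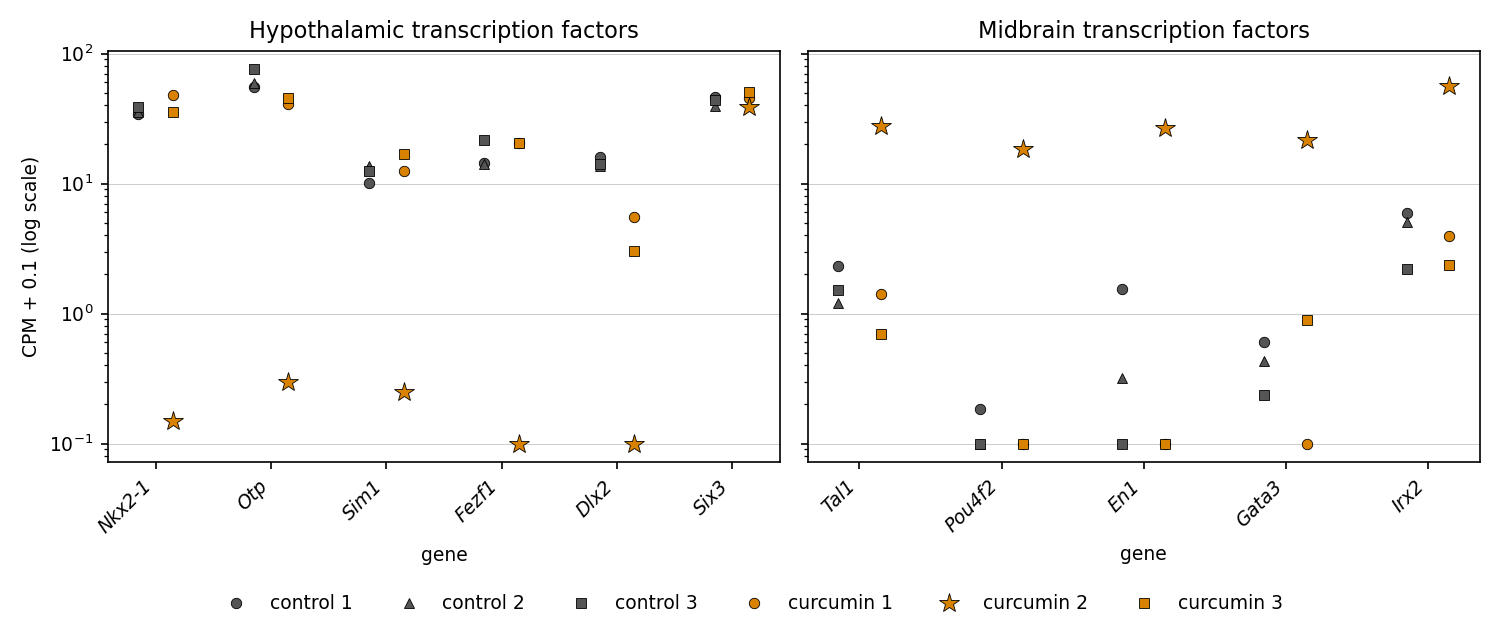
CPM plus 0.1 on a log axis for hypothalamic (left) and midbrain (right) transcription factors in each of the 3 control and 3 curcumin libraries, 1 point per library. Curcumin replicate 2 (star) lies near 0 for Nkx2-1, Otp, Sim1, Fezf1 and Dlx2 and above the other libraries for Tal1, Pou4f2, En1, Gata3 and Irx2.

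Curcumin replicates 1 and 3 held Nkx2-1, Sim1 and Fezf1 at or above the lowest control, whereas both were below the controls for Otp and Dlx2, and they differed from each other elsewhere. Slc6a3, the dopamine transporter, was at 71.6 CPM in replicate 1 and 5.40 CPM in replicate 3, against 4.67 to 14.5 CPM in control. Genes of the mitochondrial respiratory chain had a level of -0.98 in replicate 1 and -0.24 in replicate 3. Among controls, replicate 3 had an astrocyte marker level of -1.15, where control replicates 1 and 2 had 0.58 and 0.55.

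The genes of smallest p that were lower with curcumin are described first, as values, since none passed. Foxd2, a forkhead transcription factor, had 66, 36 and 54 counts in the control libraries and 0, 1 and 0 in curcumin replicates 1 to 3. The ratio of control to curcumin was 150.1, with an exact 95% counting interval of 26.6 to 5968 (unadjusted p = 4.17e-05 by edgeR, adjusted p = 1). Slc5a7, the high-affinity choline transporter of cholinergic neurons, was at 2.15, 2.71 and 1.45 CPM in control and at 0, 0.0993 and 0.0991 CPM with curcumin. Both genes thus sat near 0 in all 3 curcumin libraries. Untreated diabetes held Foxd2 at 4.95 ± 2.01 CPM and Slc5a7 at 1.64 ± 0.234 CPM (SD, n = 4), so both were detected in that group.

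Foxb2, another forkhead factor, was at 3.29, 3.54 and 2.27 CPM in control and at 0.284, 0 and 0.248 CPM with curcumin. Msln, which encodes the surface protein mesothelin, was at 2.03, 1.82 and 3.40 CPM in control and at 0.331, 0.0497 and 0 CPM with curcumin. Fam183b was at 13.0 ± 2.59 CPM in control (SD, n = 3) and at 1.28, 2.58 and 5.55 CPM with curcumin, a log2 change of -2.05 ± 0.47 (SE; edgeR unadjusted p = 0.000392, adjusted p = 1). In these 3 genes as well the groups did not overlap, as in the 5.84% of all genes that lay below control. The pick by p favours such a separation. Without curcumin replicate 2 the log2 change was -3.51 ± 1.11 for Foxb2, -3.85 ± 1.39 for Msln, -1.95 ± 0.54 for Fam183b and -5.29 ± 1.42 for Slc5a7, and of the genes named so far only Foxd2 passed in that fit (edgeR adjusted p = 0.0432).

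Nts, the neuropeptide neurotensin, which acts in feeding and body temperature, was at 34.6, 39.2 and 26.7 CPM in control and at 10.4, 4.57 and 16.7 CPM with curcumin. Its log2 change was -1.67 ± 0.38 and, without curcumin replicate 2, -1.34 ± 0.34 (edgeR adjusted p = 1 and 0.161). Bex1, a small neuronal protein of the brain-expressed X-linked family, was at 86.7, 91.1 and 152 CPM in control and at 34.5, 61.4 and 46.6 CPM with curcumin. Its log2 change was -1.21 ± 0.32 with all libraries and -1.47 ± 0.33 without replicate 2 (edgeR adjusted p = 1 and 0.0905). Each curcumin library lay below each control library for both genes, as for 5.84% of all genes, and both were picked by p in this comparison.

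Zic1, a zinc-finger factor of the thalamus and other dorsal brain regions, was at 99.2, 65.6 and 69.6 CPM in control and at 21.7, 18.7 and 47.6 CPM with curcumin. Fstl5, a secreted follistatin-like protein, was at 54.9, 57.1 and 57.0 CPM in control and at 26.0, 26.7 and 37.3 CPM with curcumin. Untreated diabetes stood at 31.2 ± 9.10 CPM for Zic1 and 32.4 ± 2.42 CPM for Fstl5. The curcumin group was at 29.3 ± 15.9 and 30.0 ± 6.31 CPM (SD, n = 3), so its difference from untreated diabetes was smaller than its own spread. That difference was -0.09 ± 0.31 for Zic1 and -0.11 ± 0.21 for Fstl5 on the log2 scale (edgeR adjusted p = 0.937 and 0.870). Both contrasts with control share the control libraries. From control, the log2 change with curcumin was -1.41 ± 0.34 for Zic1 and -0.91 ± 0.23 for Fstl5, and -1.21 ± 0.35 and -0.86 ± 0.24 without curcumin replicate 2.

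The genes of smallest p that were higher with curcumin included several of blood vessels. Tie1, an endothelial receptor of the angiopoietin pathway, was at 4.35, 5.53 and 4.99 CPM in control and at 16.9, 21.3 and 9.71 CPM with curcumin. Slco1a4, an organic anion transporter of brain capillaries, was at 13.0, 13.5 and 20.3 CPM against 34.8, 59.6 and 28.5 CPM. Ptprb, the endothelial receptor phosphatase that acts on the TIE2 receptor, was at 13.5, 11.8 and 10.1 CPM against 52.7, 28.4 and 28.9 CPM. Every curcumin library lay above every control library for these 3 genes, as for 2.82% of all genes. They were picked by p in this same comparison, which favours such a separation. Garlic libraries averaged 9.45 CPM for Tie1, 46.4 CPM for Slco1a4 and 26.1 CPM for Ptprb. Control means were 4.95, 15.6 and 11.8 CPM, so higher means were not particular to curcumin. Untreated diabetes stood at 5.27 ± 1.33 CPM for Tie1, 15.9 ± 8.19 CPM for Slco1a4 and 9.83 ± 5.77 CPM for Ptprb, each a mean near that of control. The log2 changes from control were 1.69 ± 0.46 for Tie1, 1.39 ± 0.40 for Slco1a4 and 1.63 ± 0.45 for Ptprb (edgeR adjusted p = 1 for each). Without curcumin replicate 2 they were 1.39 ± 0.51, 0.98 ± 0.41 and 1.75 ± 0.48 (edgeR adjusted p = 0.430, 0.517 and 0.200).

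Ushbp1 was at 2.57, 5.58 and 3.40 CPM in control and at 20.8, 12.7 and 11.0 CPM with curcumin. Its log2 change was 1.94 ± 0.50 with all libraries and 2.01 ± 0.55 without curcumin replicate 2 (edgeR adjusted p = 1 and 0.198). Mtus2, a microtubule-associated protein, was at 31.0, 34.6 and 26.7 CPM against 70.1, 55.7 and 55.4 CPM. Extl1, a glycosyltransferase of heparan sulphate synthesis, was at 29.7, 26.7 and 23.7 CPM against 50.8, 50.8 and 50.7 CPM. For Mtus2 and Extl1 the log2 changes were 0.97 ± 0.26 and 0.93 ± 0.26, and 0.99 ± 0.27 and 0.89 ± 0.27 without replicate 2, so they differed little with that library left out.

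The other 4 of these 10 genes rested more on curcumin replicate 2. Syt2, a calcium sensor of fast transmitter release, was at 407 CPM there and at 61.3 and 40.3 CPM in replicates 1 and 3, against 57.0, 40.9 and 32.2 CPM in control. Its log2 change of 1.97 ± 0.57 became 0.19 ± 0.30 without that library. The pacemaker channel Hcn2 was at 482 CPM in it and at 201 and 183 CPM in the others, against 114 to 167 CPM in control. Sema3f, an axon guidance cue, was at 129 CPM in it and at 35.3 and 30.7 CPM in the others, against 20.8 to 28.5 CPM in control. The log2 changes of Hcn2 and Sema3f went from 1.05 and 1.40 to 0.43 and 0.39 without it. Dmp1, a matrix phosphoprotein, was at 10.6, 22.5 and 0.644 CPM, and the last lay within the control range of 0.453 to 2.15 CPM.

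**Figure D2:**
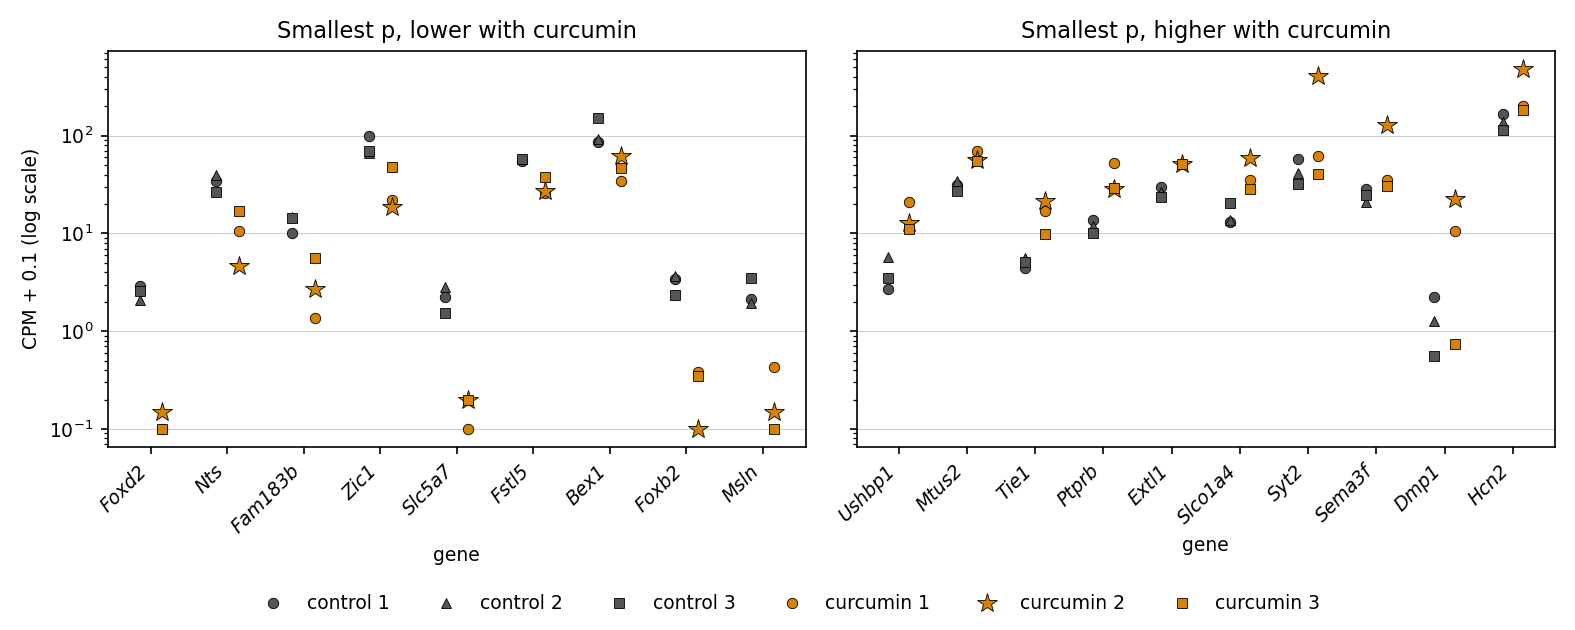
CPM plus 0.1 on a log axis for genes of smallest p that were lower (left) or higher (right) with curcumin, 1 point per library. The groups do not overlap for the 9 genes on the left, which were picked by p (5.84% of all genes lay below control without overlap). For Syt2, Sema3f, Dmp1 and Hcn2 on the right the highest point is curcumin replicate 2 (star).

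Without curcumin replicate 2, edgeR called 49 of 25358 genes, all lower with curcumin (0.193%), and 0 higher (0%). The 2 remaining curcumin libraries both lay above the controls in 9.35% of genes and below them in 21%, and 1.39% were higher and 7.55% lower at an unadjusted p under 0.05. The median log2 change over all genes was then -0.09. All 49 lay below every control library in both curcumin libraries. In curcumin replicate 2, 26 of the 49 stood above every control library, 18 within the controls and 5 below them. By edgeR these genes passed only with that library left out, so the split follows in part from the choice. The same split over all genes was not computed. Cck, the peptide cholecystokinin, was at 73.3, 53.2 and 50.0 CPM in control, 4.44 and 7.94 CPM in curcumin replicates 1 and 3, and 183 CPM in replicate 2. Its log2 change without replicate 2 was -3.25 ± 0.39 (edgeR adjusted p = 0.00160).

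Of the 49, 12 had no gene name beyond an identifier, a predicted locus or a pseudogene, and examples of the other 37 follow. Atp5k, a subunit of ATP synthase, fell from 52.8, 56.0 and 59.8 CPM to 6.61 and 4.89 CPM (log2 change -3.29 ± 0.37, edgeR adjusted p = 0.00160). Ndufc2, of respiratory complex I, fell by 1.65 ± 0.33, and Slirp, which stabilises mitochondrial messenger RNA, fell by 3.00 ± 0.53. Sec61b, of the translocation channel of the endoplasmic reticulum, fell by 3.10 ± 0.58, and the prolyl isomerase Ppia by 2.16 ± 0.38. Pcp4, a calmodulin regulator, fell by 2.47 ± 0.43, C1ql1, a synapse-organising secreted protein, by 2.12 ± 0.36, and Pvalb, the calcium buffer parvalbumin, by 2.15 ± 0.41. Pvalb was at 282 CPM in curcumin replicate 2, above the 14.5 to 31.8 CPM of control. These genes were named after their values were seen.

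In some of the 49 genes both curcumin libraries had no count. Tnnt1, the slow skeletal troponin T that also marks thalamic neurons, had 531 counts over the controls and 0 over curcumin replicates 1 and 3, at least 115-fold lower at a floor of 3 counts over the group. The same bound was 36.4-fold for Socs1, a brake on cytokine signalling, 75.9-fold for Kazald1 and 33.6-fold for Foxd2. Bounds and counting intervals cover counting error only. In curcumin replicate 2, Tnnt1 stood at 12.6 CPM, Socs1 at 2.28 CPM and Kazald1 at 17.3 CPM, whereas Foxd2 stood at 0.0497 CPM.

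For the 47 of the 49 genes with a length in the annotation used, the median transcript was 699 bases long, against 1377 bases for the 21747 tested genes that had one. Foxd2, at 2592 bases, was among the longer ones. With a transcript length offset added, 16 of the 49 were called, and with the number of detected genes as a covariate, 0 genes were. DESeq2 without curcumin replicate 2 called 333 genes, 317 of them lower and all 49 among them, whereas limma-voom called 1, higher. With curcumin replicate 1 left out as well, 9 genes were called, 4 of them among the 49, and with replicate 3 left out as well, 503 were called, 45 of them among the 49. In both fits the curcumin group was 1 library, assumed to vary like the other groups, so these counts do not test how stable the 49 are. The part of transcript length and of detection in these calls was not tested beyond these fits.

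The 4 genes that rose in untreated diabetes are given as values. That they did not pass under curcumin says nothing particular to them, since 0 of 25562 genes passed in either direction. They were also picked for standing above these same control libraries. Junb, an AP-1 subunit induced by cell stimulation, was at 22.2 ± 1.98 CPM in control, 87.9 ± 19.8 CPM in untreated diabetes and 9.56, 19.6 and 25.4 CPM in curcumin replicates 1 to 3. Its curcumin values spanned the control values of 20.8, 24.4 and 21.2 CPM, with a log2 change of -0.28 ± 0.30 from control (edgeR adjusted p = 1). Rps2, a ribosomal protein, was at 60.9, 62.3 and 71.0 CPM in control, 186 ± 31.1 CPM in untreated diabetes and 98.6, 83.0 and 108 CPM with curcumin. All 3 curcumin libraries were above control and below the 162 to 231 CPM of untreated diabetes. The log2 change of Rps2 from control was 0.58 ± 0.24 with all libraries and 0.64 ± 0.24 without curcumin replicate 2 (edgeR unadjusted p = 0.0255 and 0.0143, adjusted p = 1 and 0.436).

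S100a1, which binds calcium, was at 47.8, 51.2 and 32.0 CPM in control, 154 ± 33.4 CPM in untreated diabetes and 42.5, 86.7 and 69.3 CPM with curcumin. Its log2 change from control was 0.60 ± 0.29 with all libraries and 0.33 ± 0.28 without curcumin replicate 2, and its groups overlapped. The pseudogene Rpl34-ps1 was at 137, 162 and 179 CPM with curcumin against 112, 146 and 123 CPM in control. Reads of Rps2 and Rpl34-ps1 can be shared with near-identical copies, so both are uncertain.

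Of the 22 genes that were lower with curcumin than in untreated diabetes, 15 overlapped control in their CPM and 7 lay below every control library (5.84% of all genes did). Among the 15, the prefoldin subunit Pfdn5 was at 78.1, 146 and 100 CPM with curcumin and 112, 133 and 171 CPM in control, against 347 CPM on average in untreated diabetes. Tppp3, a tubulin-binding protein, was at 125, 116 and 197 CPM against 148, 176 and 158 CPM in control. Nenf, the secreted factor neudesin, was at 34.5, 82.4 and 60.4 CPM against 69.8, 59.9 and 70.9 CPM in control. With curcumin replicate 2 left out, 16 of the 22 lay below every control library, where 21% of all genes did.

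Values of the 7 that lay below control with all libraries included these. Ly6h, a membrane-anchored neuronal protein, was at 455, 499 and 508 CPM in control, 1364 ± 582 CPM in untreated diabetes and 251, 290 and 367 CPM with curcumin. Its log2 change from control was -0.69 ± 0.30, and -0.69 ± 0.31 without curcumin replicate 2 (edgeR adjusted p = 1 and 0.550). Tmem158, a membrane protein of neurons, was at 92.9, 98.2 and 95.9 CPM in control and 37.4, 61.4 and 52.7 CPM with curcumin. Tmsb10, which binds actin monomers, was at 131, 145 and 206 CPM in control and 32.8, 123 and 54.4 CPM with curcumin. The log2 change of Tmem158 was -0.92 ± 0.31, and -1.12 ± 0.33 without replicate 2 (edgeR adjusted p = 1 and 0.266). That no curcumin library reached a control library for these 3 genes follows from how the 7 were taken. Ly6h, Tmem158, Tmsb10, Bex1, Foxd2 and Fam183b passed against untreated diabetes with the same curcumin libraries, so their place against control is no independent result. Tmsb10 passed against control without curcumin replicate 2, where it fell by 1.91 ± 0.37 (edgeR adjusted p = 0.0430).

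**Figure D3:**
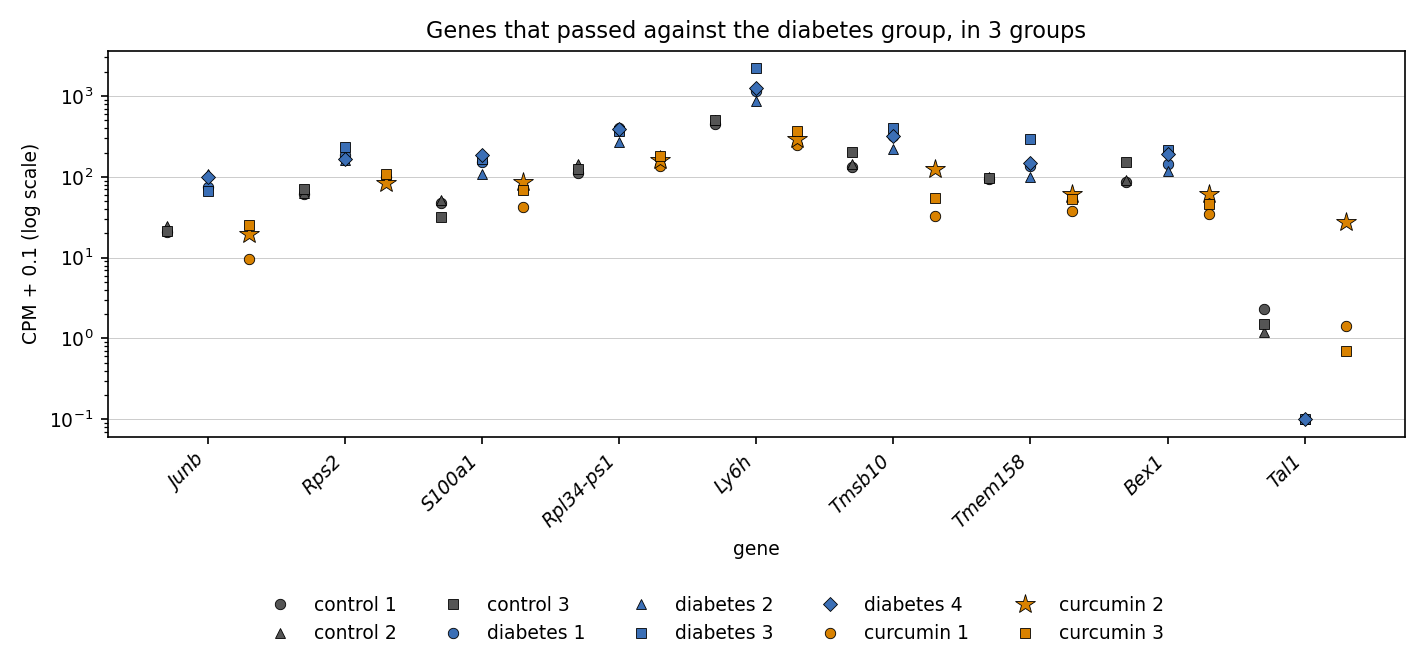
CPM plus 0.1 on a log axis in control (grey), untreated diabetes (blue) and curcumin (orange) for genes that passed in untreated diabetes against control or in curcumin against untreated diabetes, 1 point per library. Curcumin values of Junb span control, those of Rps2 lie between both groups, and those of Ly6h, Tmsb10, Tmem158 and Bex1 lie below control.

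Markers of blood vessels were the list that stood highest in curcumin after the midbrain genes of replicate 2. All 22 endothelial and mural markers tested had a positive log2 change, with a median of 1.21 against 0 over all genes, and 0 of 22 passed. At an unadjusted p under 0.05, 13 of 22 were higher and 0 lower, beside 1.06% of all genes higher. In 13 of 22 all curcumin libraries lay above all controls, beside 2.82% of all genes. The level of the list was 1.06, 1.70 and 0.44 in curcumin replicates 1 to 3 and -0.19 to 0.14 in control. It was -0.88 to 0.96 in untreated diabetes and 0.88 and 0.42 with garlic, so those groups reached into the curcumin range. Summed over the list, curcumin held 355 to 970 CPM and control 275 to 319 CPM. In a bulk sample, more vessel cells and more RNA per vessel cell cannot be told apart.

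Without curcumin replicate 2 the median of the list was 0.85, 19 of 22 had a positive log2 change, and 2 of 22, Tie1 and Slco1a4, were higher at an unadjusted p under 0.05 (1.39% of all genes). In 12 of 22 both remaining libraries lay above the controls (9.35% of all genes), and in 2 of 22 below them (21% of all genes). Cldn5, the main tight-junction claudin of brain capillaries, turned on that library: it was at 148 CPM in curcumin replicate 2 and 16.6 and 17.2 CPM in replicates 1 and 3, against 13.8, 11.4 and 31.4 CPM in control. Its log2 change went from 1.68 ± 0.68 to -0.19 ± 0.50. Flt1, a VEGF receptor, was at 61.0, 66.0 and 21.9 CPM with curcumin and 22.7, 16.5 and 25.8 CPM in control, so replicate 3 lay within control. Cdh5, the endothelial cadherin, was at 13.7, 15.5 and 7.38 CPM against 5.32, 1.05 and 5.35 CPM, and its log2 change was 1.64 ± 0.71 with all libraries and 1.39 ± 0.79 without replicate 2.

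**Figure D4:**
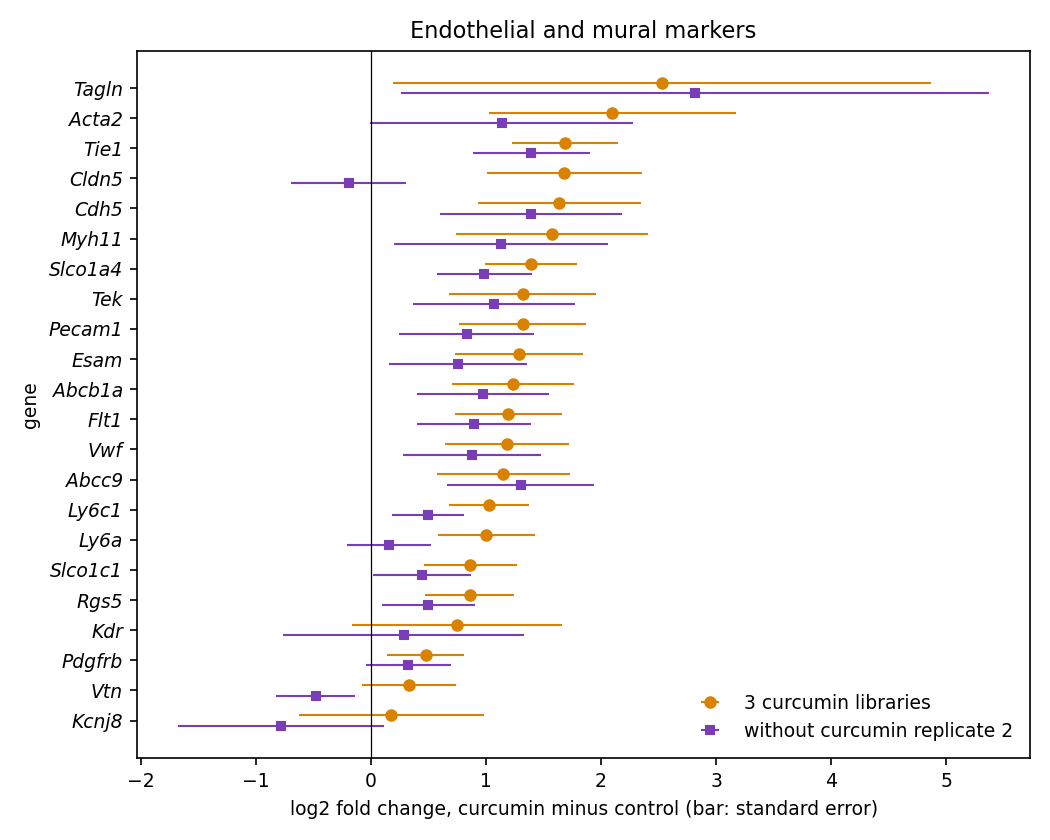
Log2 fold change of curcumin minus control for the 22 endothelial and mural markers, with the standard error as the bar, from all 3 curcumin libraries (circles) and without curcumin replicate 2 (squares). All 22 circles lie above 0, and 19 of 22 squares do.

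The promoters of 3 of these genes are shown because their values part when curcumin replicate 2 is left out: Tie1 and Slco1a4 stayed above control in both other libraries and Cldn5 did not. Each sequence runs from 250 bases before to 50 bases after a transcription start, 5′ to 3′ on the gene's strand, from RefSeq on GRCm38.p6. That build is not the one named for the counts, and the sequences serve only as context. Capitals mark GGAAG or its reverse complement CTTCC, a core of sites of ETS factors, the family that many endothelial promoters carry.
Tie1 (chr4:118489800-118490099, minus strand): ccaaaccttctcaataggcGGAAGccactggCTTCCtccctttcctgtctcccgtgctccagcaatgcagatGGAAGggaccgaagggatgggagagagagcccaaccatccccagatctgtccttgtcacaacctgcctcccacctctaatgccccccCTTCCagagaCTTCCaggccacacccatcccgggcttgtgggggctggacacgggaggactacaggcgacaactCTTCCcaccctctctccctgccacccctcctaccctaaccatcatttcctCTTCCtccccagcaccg
Slco1a4 (chr6:141856171-141856470, minus strand): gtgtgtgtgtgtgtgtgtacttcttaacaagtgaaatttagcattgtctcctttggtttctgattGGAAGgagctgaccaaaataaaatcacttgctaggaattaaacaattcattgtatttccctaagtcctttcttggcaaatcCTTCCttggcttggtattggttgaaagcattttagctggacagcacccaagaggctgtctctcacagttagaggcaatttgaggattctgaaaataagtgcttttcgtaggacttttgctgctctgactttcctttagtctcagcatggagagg
Cldn5 (chr16:18776597-18776896, plus strand): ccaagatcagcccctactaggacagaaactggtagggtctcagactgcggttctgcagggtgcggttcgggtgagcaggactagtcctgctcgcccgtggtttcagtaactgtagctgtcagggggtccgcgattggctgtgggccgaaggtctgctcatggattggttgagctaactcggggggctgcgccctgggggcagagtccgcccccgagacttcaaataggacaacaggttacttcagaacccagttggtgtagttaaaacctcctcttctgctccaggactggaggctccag
The Tie1 window held 7 matches on both strands, that of Slco1a4 held 2 and that of Cldn5 held 0. The motif was present in 71.4% of the 32851 mouse promoters of this length that were searched. It was present in 10 of the 15 found for 14 of the 22 listed genes, a share of 66.7%. The search did not cover every chromosome. A match is a description of these letters and not a measured site. Tie1, Slco1a4 and Cldn5 were picked by their values, and a link between matches and expression was not tested.

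Hypothalamic peptide genes had negative medians, and 0 of them passed. For 18 feeding peptides, of which 17 were tested, the median log2 change was -0.63, 0 passed, and 3 (Nts, Gal and Adcyap1) were lower at an unadjusted p under 0.05 beside 1.28% of all genes. For 11 of 12 magnocellular and releasing hormones tested the median was -1.36, 0 passed and 4 were lower at that threshold. These medians were -0.48 and -0.88 without curcumin replicate 2, and without curcumin replicate 3 they were -1.39 and -1.23. Prlh, prolactin-releasing hormone, had 40 counts over the controls and 1 over the curcumin libraries, a ratio of 38.5 with an exact 95% counting interval of 6.52 to 1558. Avp, vasopressin, was at 450, 606 and 742 CPM in control and at 48.8, 0.348 and 336 CPM in curcumin replicates 1 to 3. Oxt, oxytocin, was at 457, 718 and 526 CPM and at 59.7, 0.646 and 282 CPM. Replicate 2, the library that lacked hypothalamic factors, was near 0 for both, but replicates 1 and 3 were also below every control. Without replicate 2 the log2 changes were -1.67 ± 0.68 for Avp and -1.76 ± 0.61 for Oxt (edgeR adjusted p = 0.503 and 0.390). Untreated diabetes stood at 705, 1520, 725 and 1846 CPM for Avp, where only the highest control lay within that range, and at 219 to 939 CPM for Oxt, a range that held all 3 controls.

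The 6 named peptides of the arcuate nucleus and lateral hypothalamus had negative log2 changes with all libraries, and without curcumin replicate 2 those of Cartpt and Pmch were 0.20 and 0.30. Pomc, the melanocortin precursor that curbs feeding, was at 41.6, 3.87 and 75.1 CPM with curcumin and 50.3, 60.3 and 68.7 CPM in control, and without curcumin replicate 2 its log2 change was -0.07 ± 0.71. Cartpt, a satiety peptide, was at 64.8, 21.8 and 171 CPM against 84.0, 98.6 and 118 CPM. Npy, which drives feeding, was at 4.31, 25.9 and 6.94 CPM against 22.9, 6.96 and 58.5 CPM. Its log2 change was -1.25 ± 0.65 with all libraries and -2.43 ± 0.67 without replicate 2 (edgeR adjusted p = 1 and 0.203). Agrp was low throughout, at 0 to 1.34 CPM with curcumin and 0.317 to 2.05 CPM in control. Pmch, melanin-concentrating hormone, was at 159, 0.447 and 519 CPM against 238, 223 and 345 CPM, and Hcrt, orexin, at 13.9, 0 and 30.8 CPM against 20.9, 70.0 and 68.0 CPM. Pomc, Cartpt, Pmch and Hcrt were each lowest in replicate 2.

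Of 30 hypothalamic transcription factors tested, 0 passed and the median log2 change was -0.36, or -0.06 without curcumin replicate 2. Dlx2 was lower in all 3 curcumin libraries, at 5.44, 0 and 2.92 CPM against 15.8, 13.4 and 14.1 CPM. Its log2 change was -2.37 ± 0.77 with all libraries and -1.82 ± 0.43 without replicate 2 (edgeR adjusted p = 1 and 0.109). It was picked from the list after its values were seen.

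Markers of the thalamus and habenula, which border the hypothalamus, had a negative median too. Of 20 tested, 8 had a positive log2 change and 0 passed, 7 were lower and 1 higher at an unadjusted p under 0.05 (1.28% and 1.06% of all genes), and 6 did not overlap with control and were lower (5.84%). Calb2, the calcium buffer calretinin, was at 343, 324 and 380 CPM in control and 185, 195 and 252 CPM with curcumin. Prkcd, a protein kinase C of thalamic relay neurons, was at 91.9, 19.4 and 20.3 CPM in control, of which replicate 1 stood alone, and 12.8, 18.2 and 16.4 CPM with curcumin. Ramp3, a receptor activity modifier, was at 29.0, 10.9 and 11.4 CPM against 0.189, 5.96 and 0.991 CPM. Tcf7l2, a factor of thalamus and habenula, was at 325 CPM in curcumin replicate 2, at 17.1 and 22.1 CPM in replicates 1 and 3 and at 90.3, 44.8 and 57.9 CPM in control. Without replicate 2 the median of the list went from -0.55 to -0.99 and 7 were lower at that threshold (7.55% of all genes). Without control replicate 1, the one of high Prkcd, it was -0.21 and 3 were lower, and without curcumin replicate 1 it was -0.33. The level of the list was -1.36 to -0.85 in untreated diabetes, and the part of the dissection border was not tested.

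Genes of energy metabolism differed by library. For 75 nuclear-encoded subunits of the respiratory chain the median log2 change was 0.02 and 0 passed. At an unadjusted p under 0.05, 1 was lower and 0 higher, beside 1.28% and 1.06% of all genes. Their levels were -0.98, 0.71 and -0.24 in curcumin replicates 1 to 3, against -0.04 to 0.08 in control, so the 3 libraries took opposite sides. Without replicate 2 the median was -0.51, beside -0.09 over all genes, and 69 of 75 had a negative log2 change. In that fit 32 of 75 were lower at an unadjusted p under 0.05 beside 7.55% of all genes, and 2, Atp5k and Ndufc2, passed. Without replicate 1 the median was 0.27. The 13 mitochondrially encoded genes had a median of -0.27, and -0.77 without replicate 2, with 0 of 13 positive either way and 0 that passed. Of them, mt-Nd5, a complex I subunit, was at 2319, 1991 and 1960 CPM with curcumin against 3102, 2752 and 3525 CPM in control. For 79 ribosomal proteins the median was -0.39, with 20 of 79 positive (49.8% of all genes) and 0 that passed. It was -0.67 without curcumin replicate 2, -0.23 without curcumin replicate 1, and -0.12 with 31 of 79 positive without control replicate 3.

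Lists tied to curcumin's textbook targets held no gene that passed, like every other list. Of 24 NRF2 antioxidant genes 0 were higher and 0 lower at an unadjusted p under 0.05, with a median log2 change of 0.09. Over all genes 1.06% were higher and 1.28% lower, so 0 in a list of this size is near the common share. Nqo1, a quinone reductase and NRF2 target, was at 2.27, 8.64 and 5.45 CPM against 6.63, 3.32 and 4.81 CPM. Hmox1, haem oxygenase, was at 3.88, 6.11 and 0.892 CPM against 4.01, 3.70 and 2.36 CPM. Of 24 NF-kB and cytokine genes tested, out of 29 listed, 0 were higher and 0 lower, beside the same shares, with a median of 0.10. Without curcumin replicate 2 the medians were -0.13 and -0.15, and 6 of 24 NRF2 genes were lower at that threshold (7.55% of all genes), of which Gpx1, a glutathione peroxidase, was at 0 and 0.793 CPM in replicates 1 and 3 against 4.35 to 11.6 CPM in control.

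Interferon and MHC class I genes had a median of 0.36, with 17 of 21 positive and 0 that passed. Ifit1, an interferon-induced antiviral protein, was at 13.9, 5.26 and 3.96 CPM with curcumin and 1.44, 0.940 and 3.72 CPM in control. H2-K1, a class I heavy chain, was at 34.2, 44.0 and 38.4 CPM against 22.1, 27.7 and 23.3 CPM. Both were higher in every curcumin library at an unadjusted p under 0.05 (0.0316 and 0.0346 by edgeR, adjusted p = 1). Without replicate 2 the log2 change was 2.09 ± 0.89 for Ifit1 and 0.54 ± 0.31 for H2-K1. The median of the list was then 0.13, with 12 of 21 positive, and that over all genes -0.09.

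The 27 genes of the insulin and leptin pathways had a median of 0.18, with 0 that passed and 0 at an unadjusted p under 0.05. Irs2, which carries the insulin signal in hypothalamic neurons, was at 150, 58.8 and 112 CPM against 102, 70.0 and 48.9 CPM. Insr, the insulin receptor, was at 89.8, 38.8 and 49.3 CPM against 60.5, 45.7 and 47.6 CPM. Lepr, the leptin receptor, was at 14.96 CPM in curcumin replicate 1 and at 2.43 and 1.78 CPM in replicates 2 and 3, against 2.72 to 3.59 CPM in control. Socs3, a feedback inhibitor of leptin signalling, was at 6.58, 1.99 and 3.07 CPM against 3.55, 1.27 and 4.49 CPM. In all 4 genes the groups overlapped. The median of the list was 0.27 without curcumin replicate 2, and in that fit 3 of 27 were higher and 1 lower at an unadjusted p under 0.05 (1.39% and 7.55% of all genes), and Irs2 lay above every control (log2 change 0.80 ± 0.33, edgeR adjusted p = 0.516). Without curcumin replicate 1 the median was -0.02.

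Glial lists gave little that was common to the curcumin libraries. Astrocyte markers had a median of 0.39 over 14 with 0 at an unadjusted p under 0.05, beside the low control replicate 3, and Gfap, the astrocyte filament protein, was at 197, 222 and 180 CPM against 239, 320 and 80.6 CPM. Without control replicate 3 the median of astrocyte markers was 0.11. Oligodendrocyte markers had levels of -0.31, 1.02 and -0.24 in curcumin replicates 1 to 3. Microglia markers had a median of 0.04 over 16, and Aif1, which encodes IBA1, was at 4.45, 3.48 and 2.58 CPM against 2.91, 6.52 and 6.26 CPM. Blood markers had levels of -0.33, 1.69 and -0.30, and the haemoglobin gene Hba-a1 was at 30.6, 129 and 34.5 CPM against 29.4, 27.1 and 48.2 CPM. Curcumin replicate 2 thus stood apart from curcumin replicates 1 and 3 in myelin and blood genes too. Its blood level lay within the -0.02 to 2.68 of untreated diabetes.

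**Figure D5:**
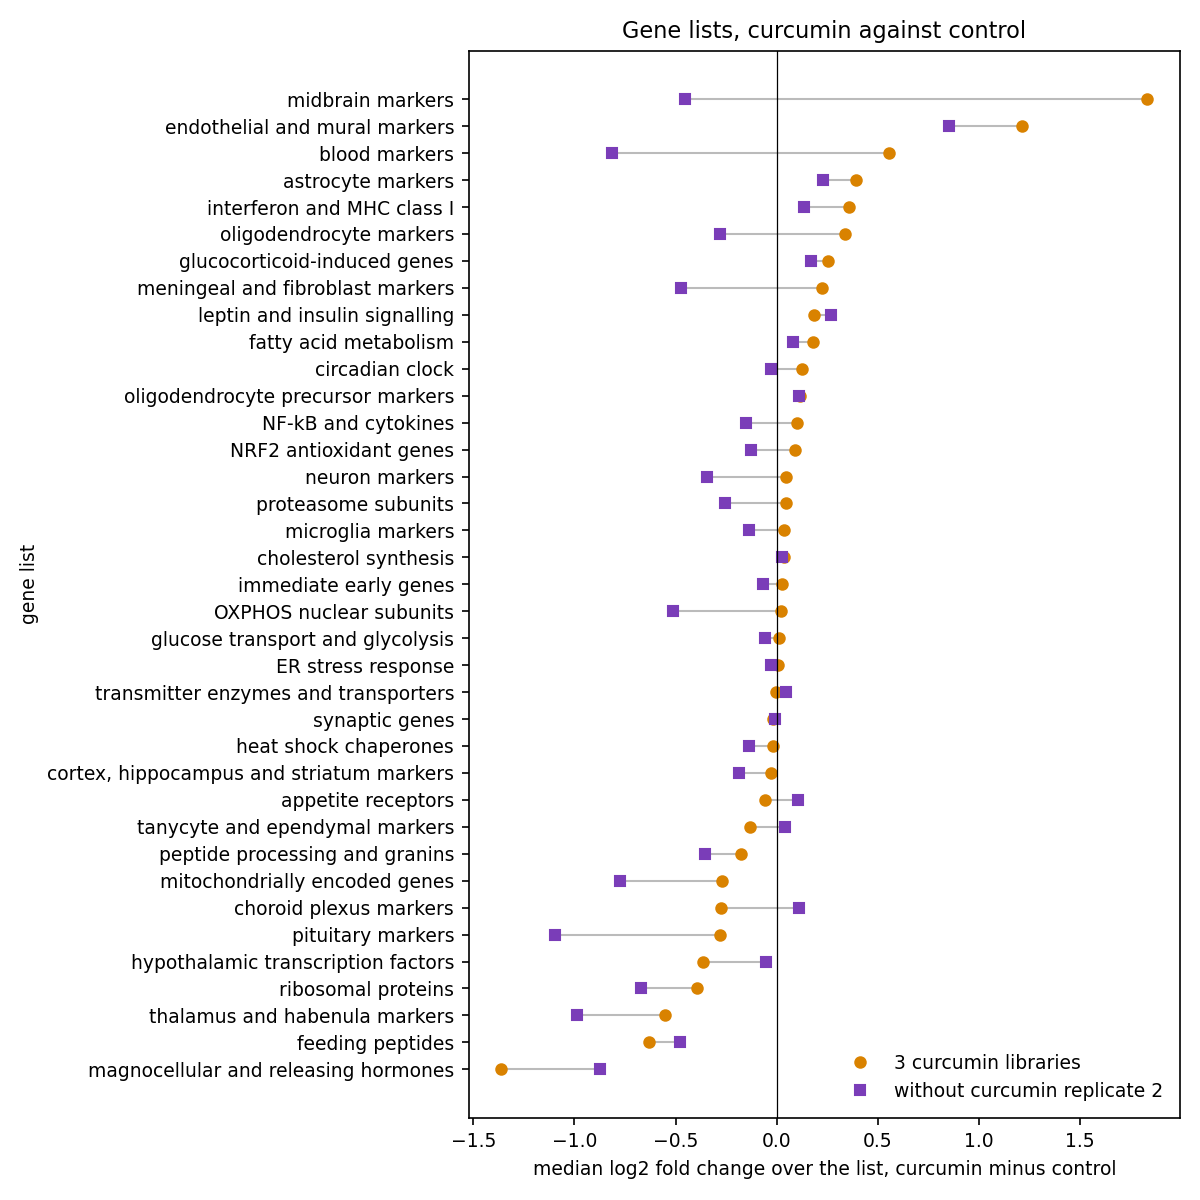
Median log2 fold change of curcumin minus control over each of 37 gene lists, from all 3 curcumin libraries (circles) and without curcumin replicate 2 (squares), joined by a line. The median of endothelial and mural markers stays above 0 at 1.21 and 0.85, whereas that of midbrain markers goes from 1.83 to -0.45 and that of blood markers from 0.55 to -0.82.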

How the data were processed

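RNA was extracted with Trizol and libraries were stranded and poly-A selected, per the labels' protocols. The authors deposited raw read counts per gene, whole numbers with no normalization. Per the submitters' processing notes, FastQC, featureCounts and GRCm39 were used. No aligner, annotation release or strand setting is given in the sources used here, so overlapping, antisense and duplicated genes are uncertain. Symbols and transcript lengths came from GENCODE on GRCm38, and 51486 of 78334 IDs (65.7%) had a symbol.

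Groups follow the sample titles. All 12 libraries were fitted by group with edgeR 4.0.16 (R 4.3.3) after filterByExpr and TMM scaling, and Benjamini-Hochberg adjusted p-values were called at 0.05. SE is the log2 change divided by the root of F. CPM is relative to TMM-scaled library size, and list levels use log2 CPM with a prior count of 2. No pair of libraries agreed within sampling noise (chi-square per degree of freedom at least 20.0). Alternatives used DESeq2 1.42.0, limma 3.58.1, other filters and fewer libraries. Scripts were tested on simulated data.

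The comparison, the 37 gene lists and the rules were chosen with earlier results of these data known. The rule named passing genes or else the 10 of smallest p per direction at 1 CPM or more with a proper symbol, the 2 of smallest p for lists whose median lay over 0.5 from that of all genes, genes that passed beside it, and a panel of appetite, insulin and inflammation genes. Some genes that the rule names are not reported here, and other genes named were picked after their values were seen.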

Additional observations from a re-analysis of the deposited data

How the results depend on the processing

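The count of genes that passed in curcumin against control, 0 by edgeR, stayed 0 with RLE scaling, a filter at 1 CPM, limma-voom, only the 6 libraries, the covariate for detected genes or the length offset. It was 43 without the low-count filter and 5 by DESeq2, and from 0 to 49 with 1 library left out, the 49 without curcumin replicate 2. With the replicate block it was also 0. The deviations of same-numbered control and curcumin libraries had r = 0.10, -0.14 and 0.069 over genes, and those of differently numbered ones -0.18 to 0.14. With 3 libraries per group the deviations sum to 0, so these values cannot settle whether the numbers pair samples. Alternatives added after seeing the data left out curcumin replicate 2 with a second change. The count was then 333 by DESeq2, 1 by limma-voom, 13 with RLE scaling and 16 with the length offset, and 0 with the covariate. It was 8, 18 and 11 without control replicates 1, 2 and 3, and 9 and 503 without curcumin replicates 1 and 3, which left 1 curcumin library, assumed to vary like the other groups. The cause was not tested.

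Of the values of named genes under the alternatives, 781 kept their direction and their side of the threshold, 21 kept their direction and passed, and 33 changed sign. No named gene had passed in this comparison with all libraries. With the replicate block the log2 change was -0.073 for Fos, 0.10 for Gfap and -0.22 for Hmox1. By limma-voom it was -0.93 for Hmox1, -0.050 for Insr, -0.18 for Lepr, -0.10 for Nqo1, -0.034 for Tal1 and 0.026 for Tppp3. With the covariate it was -0.25 for Fos, -0.011 for Insr, -0.034 for Lepr and 0.11 for Nenf. Leaving out 1 library gave ranges of -2.15 to 0.81 for Agrp, -1.21 to 0.20 for Cartpt, -0.58 to 0.30 for Fos, -0.49 to 0.32 for Gfap and -0.14 to 1.23 for Hba-a1. They were -0.53 to 0.57 for Hmox1, -0.22 to 0.41 for Insr, -0.52 to 2.79 for Irx2, -0.60 to 0.020 for Junb, -0.63 to 1.42 for Lepr and -0.53 to 0.092 for Nenf. They were -0.38 to 0.51 for Nqo1, -1.75 to 0.30 for Pmch, -1.17 to 0.14 for Scand1, -0.30 to 0.68 for Socs3 and -0.75 to 3.18 for Tal1. The median of endothelial and mural markers ran from 0.85 to 1.48 with 1 library left out.

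A count of 3 stands for 0.127 to 0.166 CPM in control and 0.142 to 0.149 CPM in curcumin libraries, so levels below that were not reliably detectable in a library. This floor does not give the size of a difference between groups that could pass, and differences far above it did not.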
